A study of Mus musculus with 3 samples.

Results

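The DNA damage response genes described here are Atm, H2afx, Mdc1, Trp53bp1, Brca1, Chek1, Chek2, Trp53 and Mdm2, which sense DNA breaks, signal from them or act through p53. They were chosen by name, and each gene was read from the platform probe sets that carry its symbol alone, using the brightest by 3-array mean. Of the 9 genes, 8 had such a probe set, each of them exactly 1, out of 19938 genes with one. Trp53, the gene of p53 itself, had no such probe set, so its expression was not read and only its start region is described. H2afx carries its newer symbol H2ax in the annotation and is called H2ax below.

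The values come from 3 microarrays of CD4+ CD8+ double-positive (DP) thymocytes, 1 for each of 3 cohorts of litter mates. The mice were wild-type C57BL/6 at an age of 5 to 6 weeks. Each cohort therefore pools animals, and the cells were taken by bead sorting for CD8 and then CD4. All 3 arrays form 1 group with no treatment and no second genotype, so the questions are which of these genes DP cells express and how far the cohorts differ.

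A double-strand break is recognised by the MRE11-RAD50-NBN complex, which activates the kinase ATM. ATM phosphorylates the histone variant H2AX around the break. MDC1 binds that mark and, through ubiquitin ligases, brings 53BP1 and BRCA1, which compete over whether the ends are resected. CHK2 carries the signal of ATM, and CHK1 that of the related kinase ATR, to the cell cycle and to p53, while MDM2 marks p53 for degradation and is itself induced by p53. DP thymocytes cut their T cell receptor alpha locus with the RAG recombinase as a step of normal development, so these cells make programmed breaks.

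The start regions show what the genes carry in sequence, set against the factors of the wider project, which mapped the binding of Ets1, Runx1 and E47. RefSeq windows on GRCm38.p6, from 250 bases before to 50 bases after a start, were matched for 8 of the 9 genes, all but H2ax. In 4 of the 8 windows (Atm, Brca1, Chek2 and Trp53), the 250 upstream bases overlap a neighbouring gene, namely Npat, Nbr1, Hscb and Wrap53, and the Trp53bp1 window lies inside the annotated span of Trp53bp1. The upstream bases of the other 3 genes, Chek1, Mdm2 and Mdc1, are free of another annotated gene. They are printed here 5′ to 3′ because they can be read as one gene's start region. Capitals mark matches to any of the searched letters. For Chek1 the stretch is chr9:36726659-36726908 on the minus strand, for Mdm2 chr10:117710759-117711008 on the minus strand, and for Mdc1 chr17:35841248-35841494 on the plus strand, where it stops 4 bases before the start.
Chek1: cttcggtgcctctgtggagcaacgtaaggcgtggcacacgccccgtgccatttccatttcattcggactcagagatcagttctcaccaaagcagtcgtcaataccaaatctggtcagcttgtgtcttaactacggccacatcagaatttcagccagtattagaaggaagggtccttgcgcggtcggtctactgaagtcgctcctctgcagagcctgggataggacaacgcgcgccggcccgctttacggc
Mdm2: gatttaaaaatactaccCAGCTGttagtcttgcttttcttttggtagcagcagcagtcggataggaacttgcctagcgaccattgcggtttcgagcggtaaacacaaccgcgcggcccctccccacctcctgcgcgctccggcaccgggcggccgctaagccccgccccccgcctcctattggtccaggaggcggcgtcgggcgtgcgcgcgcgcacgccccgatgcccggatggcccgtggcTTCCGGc
Mdc1: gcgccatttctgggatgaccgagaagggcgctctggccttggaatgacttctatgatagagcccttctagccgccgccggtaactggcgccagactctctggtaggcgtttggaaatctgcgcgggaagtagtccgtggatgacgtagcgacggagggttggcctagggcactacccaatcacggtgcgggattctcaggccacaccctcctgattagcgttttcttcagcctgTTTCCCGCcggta

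Capitals in the Mdm2 stretch mark an E box 233 bases and an ETS match 7 bases before the start, and those in Mdc1 an E2F match 16 bases before it. Chek1 holds none of the searched letters in its window. Over all 8 windows and on both strands, the ETS letters CCGGAA were found in 3 (Atm, Mdm2 and Brca1), against 18.7% of windows of protein-coding genes and 14.9% of all 32851 windows. The Atm match begins at base 10 after the start, and the Brca1 match lies 243 bases before it, within Nbr1. The E box letters CAGCTG, which E proteins such as E47 can bind, were found in 2 (Atm and Mdm2), against 15.6% of protein-coding windows and 16.3% of all. The RUNX letters TGTGGT were in 0 of the 8, against 15.0% of protein-coding windows and 16.8% of all. Any of the E2F letters TTTCCCGC, TTTGGCGC or TTTCGCGC were found in 2 (Chek2 and Mdc1), against 2.41% of protein-coding windows and 1.84% of all. The Chek2 match lies 152 bases before the start, within the 183 upstream bases that the annotated span of Chek2 covers. No 2 of these matches overlap, and with 8 windows such counts describe these genes and no more. The windows held 10 to 35 CG pairs, with a median of 21.5, against a median of 13 in protein-coding windows and 7 in all windows.

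The arrays were alike over the whole table, with a Pearson's r of 0.996 for arrays 2 and 3 across 28939 probe sets and of 0.993 for array 1 with either of them. Array 1 stood somewhat apart. Its Xist value was 11.65, against 5.40 and 5.68 on arrays 2 and 3, and its value for the Y-linked gene Eif2s3y was 4.21, against 10.29 and 10.08. By these sex-linked genes, array 1 reads as female and arrays 2 and 3 as male. Sex therefore cannot be told apart from any other source of the array 1 differences given below. Of 19 early and stress genes, 18 were highest on array 1, against 34.5% of all genes. The list deviated there by 0.67 log2 units from the 3-array mean on average, against -0.36 and -0.31 on arrays 2 and 3. All 13 measured DP markers lay above background on every array, against 41.1% of all genes. They deviated on average by -0.10, 0.05 and 0.05 on arrays 1, 2 and 3. Among markers of other cell types, 0 of 9 B cell and 1 of 15 myeloid and dendritic markers were above background on every array. So were 1 of 12 epithelial and stromal and 0 of 3 erythroid markers, again against 41.1%. The summed linear signal of the 15 myeloid and dendritic markers was 2373, 1332 and 1717 on arrays 1, 2 and 3. Of the 15, 11 were below background on each array, Csf1r and Itgam among them, against 11135 of all 19938 genes. The class II genes H2-Ab1 (9.26, 7.91 and 8.50 on arrays 1, 2 and 3), Cd74 (8.83, 7.27 and 8.05) and H2-Aa (8.44, 6.75 and 7.81), named after their values were seen, exceeded it on 2 or 3 arrays and were highest on array 1. By 3-array mean these 3 class II genes were the brightest of the 15 markers, so they weighed most in the summed signal. The part of myeloid, dendritic or other cells in the values below was not tested.

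The background limit of an array was taken as the 95th percentile of 91 genes that other organs express, which gave 7.36, 7.48 and 7.40 on arrays 1, 2 and 3. All 8 measured damage response genes lay above it on all 3 arrays, against 41.1% of the 19938 genes. The median of their 3-array means was 8.78, against 6.85 for all genes and 9.09 for the 8192 genes above background. Because the signal of a probe set depends on its probes, the level of a single gene is read below against the limit and across arrays. The limit and the list medians still set different probe sets beside each other. All values are log2 expression values, and mean ± SD is over n = 3 arrays.

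Atm, the kinase at the top of the break response, had 8.80, 8.69 and 8.72 on arrays 1, 2 and 3, with a mean of 8.74 ± 0.06. The 3 cohorts were close, and each value lay at least 1.21 above its limit. H2ax, the histone that ATM phosphorylates beside a break, had 11.13, 11.09 and 11.18 (11.13 ± 0.05). It stood 3.61 or more above the limit and was nearly level across the cohorts. H2ax shares much of its coding sequence with other H2A genes, and another 2 probe sets that list H2ax beside other histone genes were not used, so its value may include related transcripts.

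Mdc1, which reads the phosphorylated histone, had 8.40, 8.58 and 8.61 on arrays 1, 2 and 3 (8.53 ± 0.11). Array 1 was the low one, by 0.20 log2 units below the mean of arrays 2 and 3. Trp53bp1, which encodes 53BP1 and limits resection of broken ends, had 8.51, 8.57 and 8.57 (8.55 ± 0.03). Its spread was the smallest of the 8 genes. Brca1, which favours resection and repair by homologous recombination, had 9.0, 8.69 and 8.75 (8.81 ± 0.16). Here array 1 was the high one, by 0.28 above the mean of arrays 2 and 3, a ratio of 1.21.

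Chek1, the effector kinase of the ATR branch, had 9.21, 8.98 and 9.01 on arrays 1, 2 and 3 (9.07 ± 0.13). Array 1 was again high, by 0.21 above the mean of the other arrays. Chek2, the effector kinase of ATM, had 7.60, 7.94 and 7.87 (7.80 ± 0.18). It lay closest to background, only 0.25 above the limit on array 1, and array 1 was 0.31 below the mean of arrays 2 and 3. With the 99th percentile of the other-organ genes as the limit (8.04, 7.96 and 7.96), which 34.3% of all genes passed, 7 of the 8 genes remained above background and Chek2 did not.

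Mdm2, the ubiquitin ligase that holds p53 down and is a target of p53, had 9.97, 9.63 and 9.55 on arrays 1, 2 and 3 (9.72 ± 0.22). It had the widest spread of the 8 genes, with array 1 above both other arrays by 0.38 on average, a ratio of 1.30. The nearest profiles among 8191 other genes above background, by the root mean square difference of the 3 deviations, were those of Rpa2 (0.00), Ccnl1 (0.0047) and Tent4b (0.0047). As 240 genes lay within 0.05 of Mdm2 over only 3 arrays, such likeness is common.

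**Figure D1:**
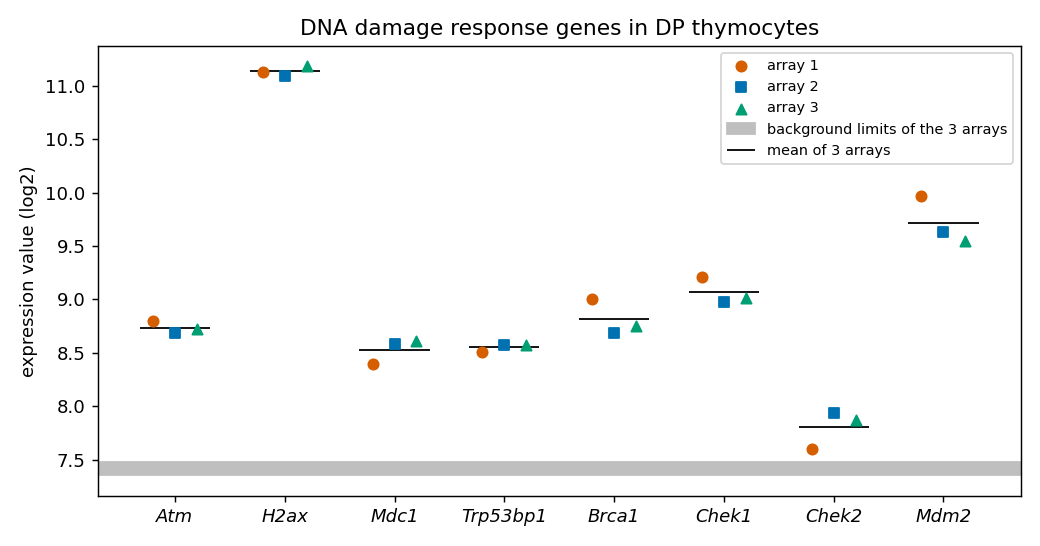
Expression values (log2, vertical axis) of the 8 measured damage response genes on each of the 3 arrays, with the 3-array mean as a bar and the range of the 3 background limits as a grey band. All points lie above the band, Chek2 nearest to it at 7.60 on array 1, and H2ax stays between 11.09 and 11.18.

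Differences between the cohorts in these genes did not pass a test. None of the 8 passed the limma variance test, which asks whether a probe set varies between arrays more than others of its level (lowest Benjamini-Hochberg adjusted p = 0.988, 0 of 8 with an unadjusted p under 0.05). Over all probe sets 0.0207% passed, and 4.66% had an unadjusted p under 0.05. Mdm2 came nearest, at an unadjusted limma p of 0.0785. A p that misses the threshold does not show that the cohorts were equal. With 3 arrays the limma variance test reached only very wide spreads. Xist and Eif2s3y passed it (Benjamini-Hochberg adjusted p = 0.0087 for each). Gadd45b, the early and stress gene with the lowest p, had 10.65, 8.28 and 8.40 on arrays 1, 2 and 3 and did not (adjusted p = 0.195). The test therefore could not decide on spreads as narrow as those of the 8 genes. The median SD of the 8 genes was 0.12, against 0.11 for all genes and 0.09 for genes above background.

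The direction of array 1 was mixed. Atm, Brca1, Chek1 and Mdm2 were highest on array 1, against 34.5% of all genes and 38.5% of genes above background. Mdc1, Trp53bp1 and Chek2 were lowest there, against 39.3% of all genes and 41.2% of genes above background, and H2ax was neither. Between arrays 2 and 3 the 8 genes differed by at most 0.09. Among 18 DNA replication genes, whose levels mark cells in S phase, 15 were highest on array 1, and the list deviated by 0.10, -0.09 and -0.01 on arrays 1, 2 and 3. Mcm2 and Mcm3, subunits of the replicative helicase, had 10.90, 10.84 and 10.80, and 10.65, 10.50 and 10.56. Chek1 and Brca1, which are known to be transcribed most in cycling cells, deviated by 0.14, -0.09 and -0.06, and by 0.19, -0.12 and -0.06. The part of the share of cycling cells in these values was not tested, and in bulk samples fewer cells of a type and less RNA per cell cannot be told apart.

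**Figure D2:**
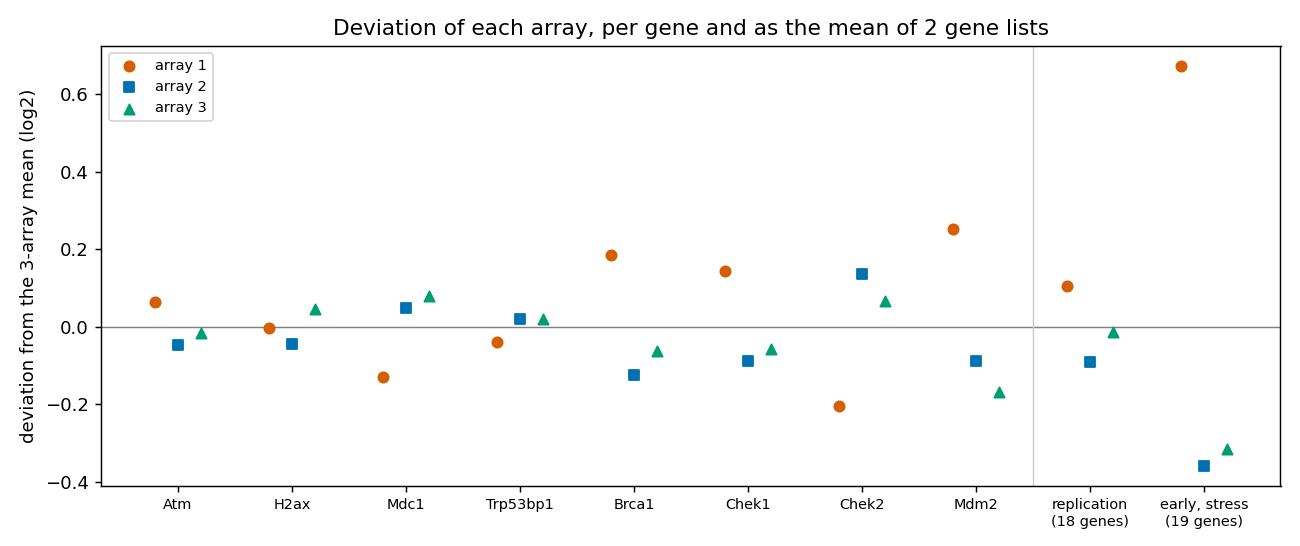
Deviation of each array from the 3-array mean (log2, vertical axis) for each of the 8 genes and, to the right, as the mean over 18 replication genes and over 19 early and stress genes. Array 1 is above 0 for Mdm2 (0.25), Brca1 (0.19) and Chek1 (0.14) and below 0 for Chek2 (-0.20) and Mdc1 (-0.13), while the early and stress list reaches 0.67.

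All 17 measured genes of break sensing around ATM lay above background on every array, against 41.1% of all genes, with a list median of 9.13. So did all 18 of the ATR-CHK1 branch, with a median of 9.18. With the 99th percentile as the limit, 16 of each list did, against 34.3% of all genes. The MRN genes Mre11a, Rad50 and Nbn had 9.37 ± 0.05, 9.15 ± 0.03 and 8.20 ± 0.12, the last from the brighter of its 2 probe sets, the other of which did not exceed the limit on all arrays. Rnf168, a ubiquitin ligase that acts after MDC1, had 9.13 ± 0.05. In the other branch, the kinase gene Atr had 8.39, 8.20 and 8.32 on arrays 1, 2 and 3, and its partner Atrip had 9.07, 9.08 and 9.15. Topbp1, an activator of ATR, was within 0.02 on the 3 arrays (10.52, 10.53 and 10.54), and Clspn, the adaptor through which ATR reaches CHK1, had 9.24, 9.11 and 9.13.

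Of the 3 subunits of RPA, which coats single-stranded DNA, Rpa2 and Rpa3 had the widest spreads of that branch, with SDs of 0.22 and 0.29. Rpa2 had 9.74, 9.40 and 9.32 on arrays 1, 2 and 3. Rpa3, named after its values were seen and read from the brighter of its 2 probe sets, had 9.53, 9.06 and 9.01. The other probe set of Rpa3 did not exceed the limit on all arrays. Rpa2 and Rpa3 were both highest on array 1. Rpa3 was the 1 gene of the 18 with an unadjusted limma p under 0.05 (0.0355, Benjamini-Hochberg adjusted p = 0.988), against 4.66% of all probe sets.

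Of 17 measured regulators and relatives of p53, 14 lay above background on every array and 3 on none, against 41.1% of all genes on every array, with a list median of 9.66. Mdm4, the relative of Mdm2 that also restrains p53, had 10.45, 10.68 and 10.58 on arrays 1, 2 and 3, lowest on array 1 where Mdm2 was highest. Usp7, which removes ubiquitin from MDM2 and p53, had 11.54 ± 0.05, and Ppm1d, a phosphatase that reverses ATM signalling, had 9.66 ± 0.10. The 3 genes below background were Cdkn2a, whose product ARF blocks MDM2 (6.55, 6.57 and 6.56), and the p53 relatives Trp63 (6.14, 6.43 and 6.34) and Trp73 (6.57, 6.51 and 6.52).

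Of 16 measured genes of homologous recombination, 12 lay above background on every array, against 41.1% of all genes, with a list median of 8.16. That count was 10 with the 99th percentile as the limit, which 34.3% of all genes passed. It was 14 with the median plus 1 log2 unit, which 9516 of all 19938 genes passed. Brca2, which acts on resected ends, had 7.78, 7.52 and 7.77 on arrays 1, 2 and 3, close to the limit, and the helicase gene Brip1 had 8.82, 8.61 and 8.75. Palb2, which links BRCA1 to BRCA2, had 6.69, 6.41 and 6.36 and was below the limit on each array. The other 3 genes below it on each array were Rad51b (6.90, 6.58 and 6.93), Rad51c (7.24, 7.34 and 7.39) and Dmc1, the meiotic recombinase gene (7.26, 7.22 and 7.17).

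**Figure D3:**
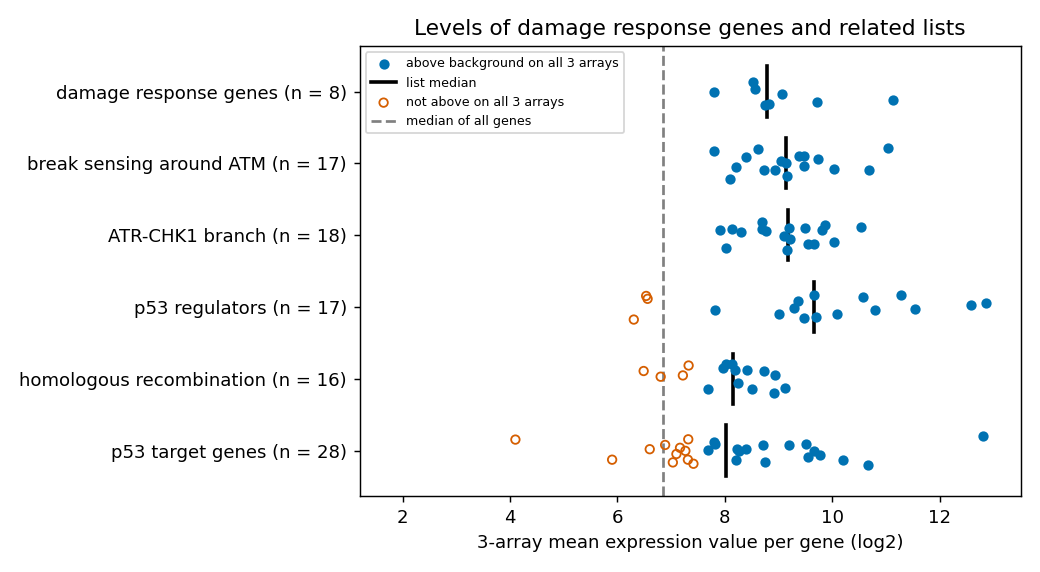
The 3-array mean expression value (log2, horizontal axis) of each measured gene of the damage response genes and 5 related lists, with the list median as a bar and the median of all genes (6.85) as a dashed line. Every point of the first 3 lists is filled, for above background on all 3 arrays, whereas p53 target genes spread on both sides of the limit, with a list median of 8.01.

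Of 28 measured genes that p53 transcribes after damage, 17 lay above background on all arrays, 5 on some and 6 on none, against 41.1% of all genes on all arrays. The list median was 8.01, against 6.85 for all genes. The count depended on the limit. It was 24 with the median of the other-organ genes plus 1 log2 unit, which 9516 of all 19938 genes passed. With their 99th percentile, which 34.3% of all genes passed, it was 14. Ccng1, an early p53 target, had 9.95, 10.27 and 10.37 on arrays 1, 2 and 3. Bbc3 and Pmaip1, which encode the killer proteins PUMA and NOXA, had 7.62, 7.18 and 7.44, and 7.50, 7.23 and 7.20. Both lay near the limit, with Bbc3 above it on arrays 1 and 3 and Pmaip1 on array 1. Zmat3, an RNA-binding protein gene, had 7.55, 7.08 and 7.32 and was above it on array 1 alone.

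On array 1, 13 of the 28 targets were highest, 9 lowest and 6 neither, against 34.5% of all genes highest and 39.3% lowest there. None of the 28 passed the limma variance test, and 3 had an unadjusted p under 0.05, against 4.66% of all probe sets, namely Plk2, Gadd45a and Sesn2, named here for that reason. Plk2, a polo-like kinase gene, had 8.13, 6.25 and 6.28 on arrays 1, 2 and 3 (limma, unadjusted p = 0.000285, Benjamini-Hochberg adjusted p = 0.326). With arrays 2 and 3 set at the limit, it was at least 1.62-fold higher on array 1. Gadd45a, a stress-induced growth arrest gene, had 10.13, 9.60 and 9.56, and Sesn2, a sestrin gene, had 7.65, 7.03 and 7.11. Sesn2 was above the limit on array 1 alone, and by the same bound at least 1.16-fold higher there. Plk2, Gadd45a and Sesn2 were all highest on array 1. On that array Fos and Jun had 9.39 and 11.01, against 7.86 and 9.65 on array 2 and 8.27 and 9.56 on array 3. The part of that early response in the values of Plk2, Gadd45a, Sesn2 and Mdm2 was not tested.

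Other p53 targets were lower on array 1. Trp53inp1, a p53-induced regulator of autophagy and death that was named after its values were seen, had 12.62, 12.89 and 12.88 on arrays 1, 2 and 3. Like Ccng1, which was 0.37 lower on array 1 than the mean of arrays 2 and 3, it ran opposite to Mdm2. The recombinase genes Rag1 and Rag2, named here for their role in cutting the receptor loci, were also lowest on array 1. So were 10 of the 13 measured DP markers, to which both belong, against 39.3% of all genes. Rag1 and Rag2 had 13.39, 13.56 and 13.57, and 8.69, 9.51 and 9.54.

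**Figure D4:**
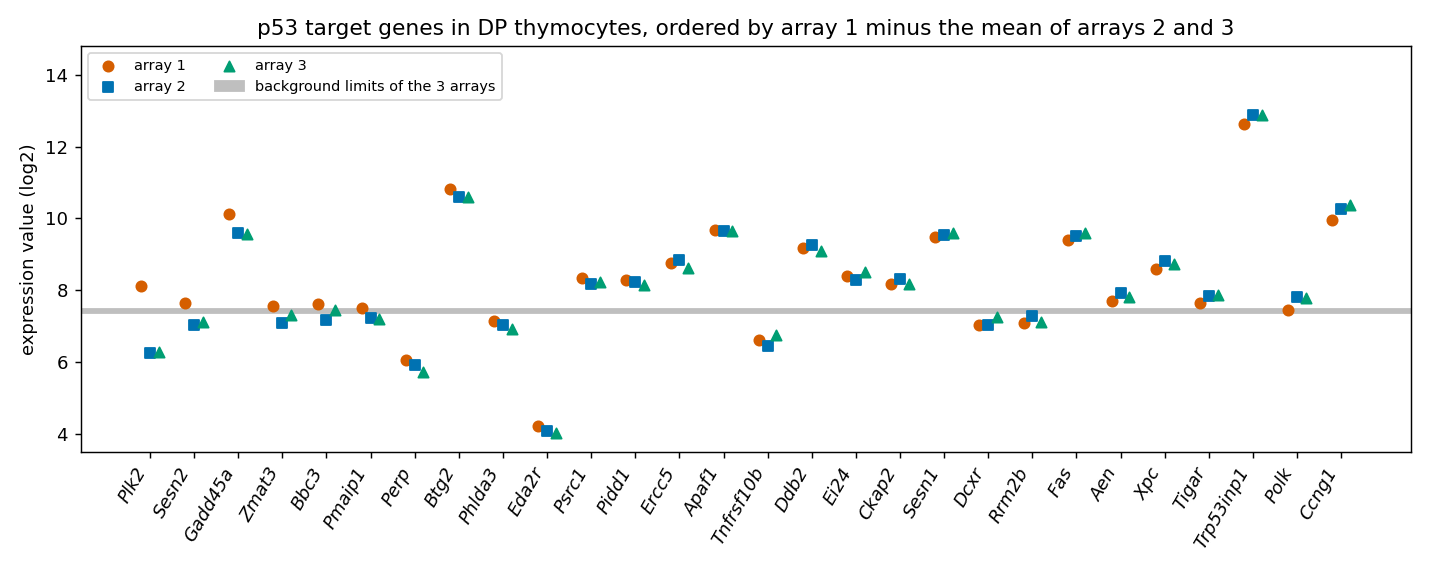
Expression values (log2, vertical axis) of 28 p53 target genes on each array, ordered by array 1 minus the mean of arrays 2 and 3, with the range of the background limits as a grey band. Plk2, at the left, is at 8.13 on array 1 and at 6.25 and 6.28 on arrays 2 and 3, and Ccng1, at the right, is lowest on array 1 (9.95).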

How the data were processed

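The data are 3 Affymetrix arrays of total RNA from sorted DP thymocytes, 1 per cohort of litter mates. Per the labels' protocols, RNA was extracted with TRIzol. Formaldehyde fixation ahead of the sort is part of the same text, and whether it applied to the RNA samples is not said. Each deposited number is a log2 expression value of 1 probe set on 1 array with 2 decimals, a unit read from the range. Affy, an R package, is named in the submitters' processing notes. Its version and settings: not given in the sources used here.

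Of 35556 probe sets, 21789 have 1 symbol in the platform annotation, and a gene with several (999 genes) was represented by the brightest. The members, gene lists and tests were chosen with earlier results of these data known. Of 105 entries in 5 pathway lists, 96 had a probe set of their own. Genes were named as members, as the first 4 measured of each pathway list, as the minority side of the background limit where 5 or fewer, and as the 3 nearest in profile to the most variable member. Of other lists the rule allowed the first 2 measured genes. Some genes were named outside these rules. H2-Ab1, Cd74, H2-Aa, Rpa3 and Trp53inp1 were named after their values were seen. Plk2, Gadd45a, Sesn2 and Gadd45b were named for their p in the limma variance test, and Rag1 and Rag2 for their role. A planned count of protein motifs was not run.

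Variance was tested with limma 3.58.1 (R 4.3.3), which fitted an intercept alone. Each probe set's variance was set against a robust mean-dependent prior by an F test with the prior degrees of freedom of the bulk of probe sets. P-values were Benjamini-Hochberg adjusted over 28939 probe sets, leaving out 6617 numbered below the first with a symbol as the likely control block. The test was tried on data simulated under the normal model that it assumes. That trial does not show how the test performs on the measured values. Other steps used Python 3.11.15, numpy 2.4.6, pandas 2.3.3 and matplotlib 3.10.9. The number of arrays limits the precision, and with 1 group no test between conditions exists. Alternatives were other background limits, normalizations, priors and probe set summaries, and leaving out each array.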

Additional observations from a re-analysis of the deposited data

How the results depend on the processing

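All 8 measured damage response genes stayed above background under median centring and quantile normalization, and 7 did with the 99th percentile. All 8 also did with the median over probe sets, with the background median plus 1, and without any 1 array. Those 3 kinds of setting could not have lowered the count. Each gene has 1 probe set, and the median plus 1 limits (6.86, 6.86 and 6.90 on arrays 1, 2 and 3) are lower. A gene above the limit on all 3 arrays is also above it on any 2. Of the 72 recomputed counts, 66 stayed within 1.5 times. The other 6 were counts of all probe sets past the limma variance test, 6 with all settings as reported. That count was 3 with a prior that was not robust (1237 at an unadjusted p under 0.05), 0 with a robust prior without a trend (1157), and 0 among the 12022 probe sets above background on at least 1 array (548). Leaving out 1 array gave 0 to 18 calls, namely 18 without array 1 and 0 without array 2 or array 3 (1120 and 1010 at an unadjusted p under 0.05). None of the 8 genes was called under any of these, and 0 had an unadjusted p under 0.05. The adjusted p of Plk2 ran from 0.326 to 0.994 over the limma settings, and was 0.994 without array 1. Counts of p53 targets above background ran from 14 with the 99th percentile to 24 with the median plus 1, and were 18 without array 2. Of all 19938 genes, 6844, 9516 and 8359 lay above background in these 3 settings. The difference of array 1 from the mean of arrays 2 and 3 kept its sign for 7 of the 8 genes under quantile normalization and median centring. The same 7 kept it with the median over probe sets and without array 2 or array 3, which could not change it. Each has 1 probe set, and on array 1 each was highest or lowest against both other arrays. The exception was H2ax, at -0.005 and from -0.05 to 0.04. The causes of these changes were not tested. A second list of other-organ genes was not used, so that comparison was not run. No paired analysis was possible because there is 1 group. Differences in total RNA between cohorts are not visible in values that share nearly 1 distribution.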

Other observations

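Shared probe sets gave values that belong to no single gene. The 2 probe sets that list H2ax beside other histone genes had 14.17, 14.16 and 14.21, and 13.52, 13.58 and 13.62 on arrays 1, 2 and 3. The probe set that lists Cdkn1a, the gene of the p53-induced cell cycle inhibitor p21, beside 1 other gene had 6.26, 5.80 and 6.07, below the background limit on each array.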
